A study of Mus musculus with 8 samples.

Results

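The genes described here are 50 that relay or shut off signals from G-protein-coupled receptors: 13 alpha, 5 beta and 9 gamma subunits of heterotrimeric G proteins, 16 regulators of G-protein signalling (RGS), 2 arrestins and 5 G-protein receptor kinases (GRKs). They were chosen by name from a fixed list, and 103 of the 41174 probes on the array belong to them. Of the 50 genes, 42 had a probe whose signal exceeded background on 4 or more arrays out of 8 and were measured, out of 14881 genes measured in all. The RNA came from primary aortic smooth muscle cells of C57BL/6 mice. In the AngII+CsA group, 4 cultures received 1 µM angiotensin II (AngII) with 200 ng/ml cyclosporin A (CsA), and in the AngII group 4 cultures received 1 µM AngII alone. Both groups therefore carried AngII, and cultures without it were not analysed here. Cultures carry the replicate numbers 1 to 4 within a treatment and are labelled as independent, and the pair of arrays with one number lay on a common slide.

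A receptor such as the AngII type 1 receptor acts on a G protein made of an alpha subunit that binds a guanine nucleotide and a beta-gamma pair. Alpha subunits of the q/11 class activate phospholipase C and so raise cell calcium, those of the s class stimulate adenylyl cyclase and those of the i class inhibit it. RGS proteins speed up nucleotide hydrolysis by alpha subunits and so end the signal, while GRKs phosphorylate active receptors, to which arrestins then bind. In vascular smooth muscle these steps set the strength of contraction and growth signals. CsA, bound to cyclophilin, inhibits calcineurin, a phosphatase that calcium activates downstream of the q/11 class.

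Many of these genes have relatives, so the 60-base probe sequences of 3 pairs are shown with the bases they share. Whether a probe also binds the relative's transcript was not tested. Capitals mark bases shared with the partner in the best ungapped alignment, and positions are as the deposited files list them (build mm7).
Gnb1: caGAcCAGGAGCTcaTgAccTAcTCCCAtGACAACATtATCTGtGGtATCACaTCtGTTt
Gnb2: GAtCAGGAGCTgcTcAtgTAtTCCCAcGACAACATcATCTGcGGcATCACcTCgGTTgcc
Gnai1: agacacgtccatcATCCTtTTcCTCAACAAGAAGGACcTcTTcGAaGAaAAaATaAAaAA
Gnao1: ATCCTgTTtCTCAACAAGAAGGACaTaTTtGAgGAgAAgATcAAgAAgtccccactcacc
Rgs3: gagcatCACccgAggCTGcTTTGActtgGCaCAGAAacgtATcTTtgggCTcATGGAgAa
Rgs4: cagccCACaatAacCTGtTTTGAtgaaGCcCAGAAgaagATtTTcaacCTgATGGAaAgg
The Gnb1 probe (chr4:154544627-154544686) and the Gnb2 probe (chr5:136447044-136447103) shared 44 of 58 aligned bases. The Gnai1 probe (chr5:17285380-17285439) and the Gnao1 probe (chr8:92543091-92543150) shared 37 of 47. The Rgs3 probe (chr4:62135803-62135862) and the Rgs4 probe (chr1:169720289-169720348) shared 31 of 59. The Gnai1 and Rgs3 probes were above background on every array. The Gnao1 probe shown was above it on 3 arrays and the Rgs4 probe on 1, and these 2 genes were not measured.

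Levels are given as log2 of the signal over the 75th percentile of the same array, so 0 is the level of the spot at that percentile and each unit is a doubling. A level belongs to its probe, and levels of different genes are not set against each other. The lowest signal that counted as above background lay between -3.87 and -3.01 on the 8 arrays, on which 42.8% to 51.7% of spots were above it. The 8 genes not measured were Gna13, Gnao1, Gng4, Rgs1, Rgs4, Rgs9, Rgs18 and Arrb2. Gng4, Rgs9 and Arrb2 were above background on no array, Rgs1, Rgs4 and Rgs18 on 1 array at most, Gna13 on 2 and Gnao1 on 3. Such a result is a limit of these probes and does not show that the transcript was absent. Of the smooth muscle markers checked, 8 of 10 were above background on all arrays, including Acta2, Myh11, Tagln and Cnn1. The endothelial markers Pecam1, Cdh5 and Tie1 and the leukocyte markers Adgre1 and Itgam were above background on none, while 4 of 6 adventitial fibroblast markers, Pdgfra, Lum, Dcn and Pi16, were above it on all.

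The first comparison asked which of these genes differed with CsA in the presence of AngII. None of the 42 measured genes did, by limma with the replicate number as a block and Benjamini-Hochberg adjustment over all genes, against 0.0269% of all genes tested, that is 4 of 14881. The smallest adjusted p among the 42 was 0.894, and over the alternative settings it went down to 0.156, with normexp background correction. At an unadjusted p under 0.05 there were 2 of 42, Gna14 and Gna15, against 5.26% of all genes, and without the block there were 0 of 42, against 0.289%. With normexp there were 13 of 42 (31%), against 26.9% of all genes. The median difference was -0.04 over the 42 genes and -0.02 over all genes, and the median size of a difference was 0.104 and 0.105 log2. In no gene did the 4 AngII+CsA arrays lie wholly below or wholly above the 4 AngII arrays, against 0.276% and 0.0941% of all genes. The 95% interval of a gene's difference had a median full width of 0.606 log2 over these genes, which limits what could be seen.

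Among the alpha subunits of the q/11 class, Gnaq, which couples the AngII type 1 receptor to phospholipase C, had levels of 5.11, 4.06, 4.23 and 3.44 in the AngII+CsA cultures 1 to 4, against 5.04, 4.01, 3.88 and 3.31 in the AngII cultures. Each AngII+CsA culture was above the AngII culture of its number, and the groups overlapped almost fully. The difference was 0.15 (95% interval -0.10 to 0.41, adjusted p = 0.915 by limma). Its other probe (A_51_P311659) gave 0.32, with an unadjusted p of 0.0299 and an adjusted p over probes of 0.932 by limma. Gna11, its close relative, had levels of 2.03, 2.60, 2.59 and 3.20 with CsA, against 1.75, 2.37, 2.63 and 3.08 with AngII alone. Here 3 of 4 pairs were higher with CsA, and the difference was 0.15 (-0.11 to 0.41).

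Gna15, a q-class subunit known mainly from blood cells, had levels of -0.53, -0.75, -0.28 and -0.04 with CsA, against 0.33, -0.34, -0.17 and 0.19 with AngII alone. All 4 pairs were lower with CsA, most of all pair 1, while the groups overlapped. The difference was -0.40 ± 0.15 (SE, n = 4 pairs), with an unadjusted p of 0.0325 by limma and an adjusted p of 0.894. Gna14, another q-class subunit, had levels of -2.78, -2.97, -5.39 and -4.85 with CsA, against -1.40, -1.94, -4.11 and -5.17 with AngII alone. It was above background on 2 of 4 arrays in each group, those of numbers 1 and 2, so the values of numbers 3 and 4 lie where the array does not resolve levels. Its difference of -0.84 ± 0.29 (SE, n = 4 pairs) was the only one over 0.5 log2 in size, against 2.61% of all genes, with an unadjusted p of 0.0238 and an adjusted p of 0.894 by limma.

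Of the other alpha subunits, Gna12, of the 12/13 class, had levels of 3.00, 3.27, 3.42 and 3.43 with CsA, against 2.74, 3.11, 3.34 and 3.53 with AngII alone. Its difference was 0.10 (-0.16 to 0.36). Gnas, which stimulates adenylyl cyclase, had levels of 6.31, 6.14, 6.87 and 6.51 with CsA, against 6.01, 5.98, 6.92 and 6.46 with AngII alone. Culture 3 was the highest in both groups, and the difference was 0.11 (-0.15 to 0.38).
The inhibitory subunits showed no ordering by treatment either. Gnai1 had levels of 2.78, 2.49, 3.29 and 2.64 with CsA, against 2.54, 2.52, 3.49 and 2.72 with AngII alone, a difference of -0.02 (-0.29 to 0.26). Gnai2 had levels of 4.92, 4.83, 5.68 and 5.20 with CsA, against 4.21, 4.84, 5.85 and 5.17 with AngII alone, a difference of 0.14 (-0.26 to 0.53). Pair 1 of Gnai2 differed by 0.71, and pairs 2, 3 and 4 by -0.01, -0.17 and 0.03. Gnai3 had levels of 7.02, 6.17, 6.61 and 5.54 with CsA, against 7.01, 6.17, 6.28 and 5.45 with AngII alone, a difference of 0.11 (-0.16 to 0.37).

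The beta and gamma subunits, which form the pair released from the alpha subunit, gave 13 measured genes, with differences between -0.24 and 0.20 for beta and between -0.22 and 0.07 for gamma. The difference was below 0 in 4 of 5 beta and 6 of 8 gamma genes, against 55.9% of all genes. Gng3, a gamma subunit known mainly from neurons, had levels of -3.84, -2.15, -1.53 and -1.59 with CsA, against -3.36, -1.97, -1.33 and -1.56 with AngII alone. It was lower with CsA in 4 of 4 pairs by -0.22 on average, with an unadjusted p of 0.0995 by limma, and was not above background in number 1. Gng7 had levels of -2.06, -1.11, -1.63 and -0.81 with CsA, against -2.13, -1.16, -1.53 and -0.64 with AngII alone, a difference of -0.04 (-0.29 to 0.21).

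Of the 16 RGS genes 12 were measured, 7 with a difference below 0 and 5 above, between -0.31 and 0.23. Rgs2, which acts mainly on the q class and limits AngII signalling in vessels, had levels of 7.24, 5.32, 4.05 and 3.88 with CsA, against 7.33, 5.77, 4.20 and 3.44 with AngII alone. Numbers 1 and 2 lay well apart from each other and from numbers 3 and 4, which were close to each other with CsA. The pairs differed by -0.09, -0.45, -0.14 and 0.44. The difference was -0.06 (-0.44 to 0.32). Rgs3 had levels of 4.20, 4.80, 4.55 and 5.65 with CsA, against 4.03, 4.78, 5.24 and 5.48 with AngII alone, a difference of -0.08 (-0.49 to 0.33).
Rgs5, a marker of mural cells in the intact vessel wall, was near background, above it on 3 of 4 AngII+CsA and 2 of 4 AngII arrays. Its levels were -3.03, -2.67, -3.91 and -3.13 with CsA, against -4.20, -2.53, -3.37 and -2.81 with AngII alone, a difference of 0.05 (-0.63 to 0.72). Rgs16, an RGS protein of the i and q classes, had levels of -1.53, -2.06, -3.13 and -2.84 with CsA, against -1.86, -1.83, -3.77 and -2.41 with AngII alone. Neither order of the groups held over the pairs of Rgs16, whose difference was 0.08 (-0.39 to 0.55). Rgs7 had levels of -1.59, -3.03, -2.90 and -3.81 with CsA, against -1.47, -2.80, -3.21 and -3.97 with AngII alone, a difference of 0.03 (-0.28 to 0.34).

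Among the genes that silence receptors, Grk5, a membrane-bound kinase, had levels of 5.26, 4.86, 5.39 and 4.69 with CsA, against 5.88, 4.99, 5.45 and 4.99 with AngII alone. It was lower with CsA in 4 of 4 pairs, with overlapping groups, and the difference was -0.28 (-0.59 to 0.03, unadjusted p = 0.0694 and adjusted p = 0.894 by limma). Its other probe gave -0.31. Adrbk1, now named Grk2, had levels of 3.46, 3.38, 4.40 and 4.09 with CsA, against 3.16, 3.21, 4.67 and 4.06 with AngII alone, a difference of 0.06 (-0.24 to 0.36).
Adrbk2, now named Grk3, likewise showed no ordering by treatment. Its levels were -0.90, -0.45, -0.66 and -0.39 with CsA, against -1.13, -0.40, -0.26 and -0.41 with AngII alone, a difference of -0.05 (-0.37 to 0.26). Arrb1, the arrestin that was measured, had levels of 1.98, 1.26, 1.66 and 1.49 with CsA, against 2.06, 1.10, 1.88 and 1.56 with AngII alone. Its difference was -0.05 (-0.32 to 0.21).

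Over all 42 genes, 3 were lower with CsA in 4 of 4 pairs, Gna15, Gng3 and Grk5, against 9.72% of all genes. In the other direction 2 were higher in 4 of 4 pairs, Gnaq and Gng8, against 4.98%. These shares were 7.14% and 4.76%. With normexp the counts were 10 (23.8%, against 26.7% of all genes) and 8 (19%, against 11.9%), and the difference of the shares was not tested.

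**Figure D1:**
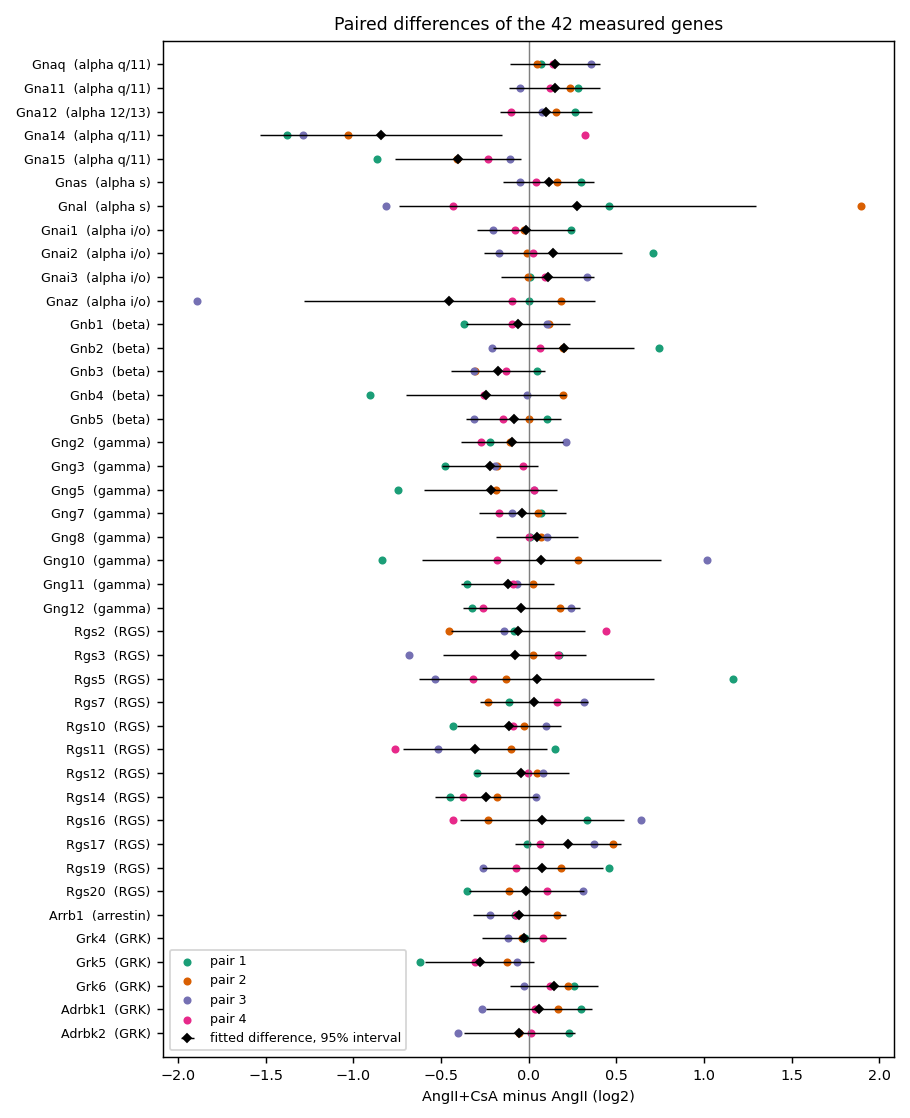
Differences AngII+CsA minus AngII (log2, horizontal axis) for the 42 measured genes, ordered by role. Coloured points are the 4 pairs and black diamonds the fitted difference with its 95% interval; Gna14 at -0.84 and Gna15 at -0.40 are the genes whose interval leaves out 0.

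The second comparison asked how these genes differed between the numbered cultures, whose arrays also shared slides, so that culture and slide cannot be told apart. By limma's moderated F test over the replicate numbers, 33 of 42 genes (78.6%) passed an adjusted p of 0.05, against 68.5% of all genes. The lowest and highest number means were over 1 log2 apart in 22 genes (52.4%), against 42.4% of all genes. They were over 2 log2 apart in Gna14, Gng3, Gng10, Rgs2 and Rgs7 (11.9%), against 7.11%. These shares stand somewhat above those of all genes, and the difference was not tested.

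Rgs2 had the widest range. Its number means were 7.29, 5.55, 4.13 and 3.66 for numbers 1 to 4, a 12.3-fold range (adjusted p = 0.00101 by limma's F test), against a difference of -0.06 with CsA. By that F statistic it was the 111th of 14881 genes. All 8 arrays were above background for this probe, and the range was 3.49 with normexp background correction, 3.48 in the authors' deposited table and 3.55 after a correction for probe base composition, against 3.63. The value rests on 1 probe (chr1:143927444), since the other Rgs2 probe was above background on no array.

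Gnaq and Gnai3 followed the same order at its ends, highest in number 1 and lowest in number 4. Gnaq had number means of 5.07, 4.03, 4.05 and 3.38 (adjusted p = 0.00243 by limma) and a second probe that moved with it (r = 0.97 over 8 arrays). Gnai3 had number means of 7.02, 6.17, 6.45 and 5.49 (adjusted p = 0.00330 by limma). Gna11 ran the other way, lowest in number 1 and highest in number 4, with means of 1.89, 2.49, 2.61 and 3.14 (adjusted p = 0.00522 by limma). Its second probe (A_51_P498004, r = 0.68 over 8 arrays) had means of 0.71, 0.88, 1.76 and 1.41, also lowest in number 1 but highest in number 3, so the upper end of the order depends on the probe. The ends of these orders, Gnaq and Gnai3 high in number 1 and Gna11 low, were the same with normexp, in the authors' deposited table and after the base composition correction. Another arrangement was led by number 3: Gnb2, a beta subunit, had means of 6.97, 7.27, 8.50 and 8.002, and Adrbk1 had means of 3.31, 3.29, 4.53 and 4.08. After the base composition correction both stayed highest in number 3, with narrower ranges. The range of Gnb2 was then 0.99 log2, against 1.53, and that of Adrbk1 0.92, against 1.24. Other Adrbk1 probes, also highest in number 3, had ranges of 1.86 and 0.44 log2. Gnb2 and the genes listed in the next sentence were named after their values were seen. Grk6 was also highest in number 3, and Gng10 and Gng12 were highest in number 4 and lowest in number 3. Number 3 was highest in 17 of 42 genes, number 4 in 12, number 1 in 11 and number 2 in 2, against 34.3%, 24%, 26.8% and 14.9% of all genes.

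Dim probes gave 3 of the 5 ranges over 2 log2. Rgs7 was below background in numbers 3 and 4 and about 3.89-fold higher in number 1 than in number 4. Gna14 was below background in the same numbers and about 2.64-fold higher in number 1 than in number 4. Gng3 was below background in number 1 and about 3.83-fold higher in number 3. These estimates set the brighter number's mean against whichever is higher on each array, the dim probe's reading or that array's background limit. That limit is the lowest signal of any probe that counted as above background. A probe can read over it without being counted, as the Rgs9 probe did at -3.26 in AngII culture 4 (limit -3.43). The estimates are therefore no strict lower bounds. With normexp, which compresses dim signals, the ranges of Rgs7 and Gng3 were 0.54 and 0.50 log2, against 2.36 and 2.17.
Of the 103 probes, 26 were above background on some arrays only. The AngII+CsA and AngII arrays of a number gave the same call in 87 of 104 cases (83.7%), against 77.3% over all such probes of the array.

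Markers of cell state moved with the numbers too. Of the 9 measured smooth muscle markers, 8 were lowest in number 1, where Acta2 had a mean of 5.59, against 8.76 in number 3. Their summed signal was 240 to 1274 times the 75th percentile in the AngII+CsA group and 304 to 1446 in the AngII group. Of the 4 measured fibroblast markers, 3 were highest in number 1, and their summed signal was 344 to 1149 in the AngII+CsA group and 301 to 1195 in the AngII group. These sums add linear signals, so they mostly reflect the brightest probes, those of Tagln and Acta2 for smooth muscle and of Dcn for fibroblasts. Among the other lists, 3 of 4 measured leukocyte and 4 of 6 measured neuron and Schwann cell markers were lowest in number 1. So were 1 of 5 measured endothelial markers and the 1 measured platelet marker. Probe base composition moved as well: over 19529 probes the deviation of the numbers 1 to 4 correlated with the probe's GC share at -0.30, -0.16, 0.29 and 0.22. After correction for it, 29 of the 42 genes (69%) differed between numbers, against 63.9% of all genes. In these bulk samples, fewer cells of a type and less RNA per cell cannot be told apart, and the part of these markers in the differences was not tested.

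**Figure D2:**
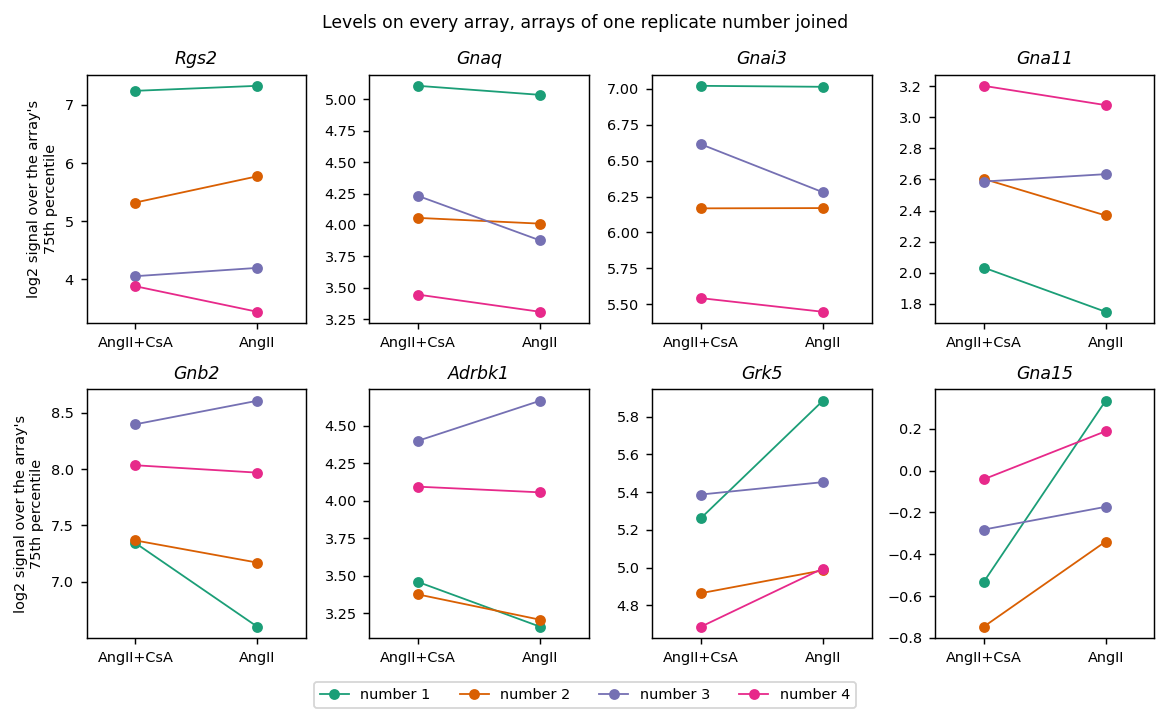
Levels of 8 genes on every array (log2 signal over the array's 75th percentile, vertical axis), AngII+CsA at left and AngII at right, with arrays of one replicate number joined. The lines of Rgs2 stay apart at 7.29, 5.55, 4.13 and 3.66 on average and run nearly level, and those of Gna11 are stacked in the opposite order at their ends.

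**Figure D3:**
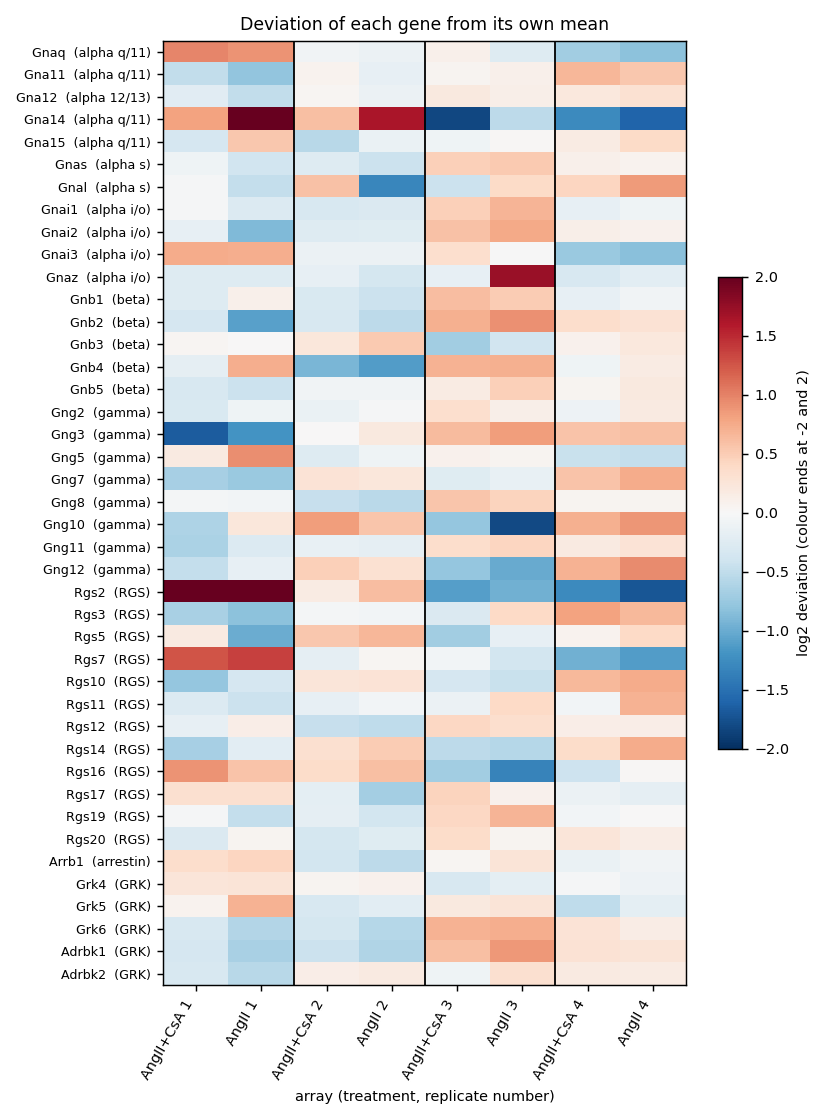
Deviation of each of the 42 genes from its own mean over 8 arrays (log2, colour), with the arrays of each replicate number side by side, AngII+CsA left of AngII. Neighbouring columns of a number share colours in most rows, as in Rgs2, Gnaq and Gna11.

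Because Rgs2 and Gnaq were high and Gna11 low in number 1, their promoters are shown, as windows of 300 bases around the gene start, from RefSeq in build GRCm38.p6. Capitals mark the CRE half-site TGACG, the NFAT core GGAAA or the TATA box TATAAA, searched on both strands.
Rgs2: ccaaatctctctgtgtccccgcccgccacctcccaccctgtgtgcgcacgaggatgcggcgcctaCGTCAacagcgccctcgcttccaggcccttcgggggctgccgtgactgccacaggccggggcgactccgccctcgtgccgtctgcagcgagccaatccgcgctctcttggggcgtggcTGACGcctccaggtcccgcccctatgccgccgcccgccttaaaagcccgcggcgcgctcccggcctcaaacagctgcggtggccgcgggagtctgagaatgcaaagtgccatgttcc
Gnaq: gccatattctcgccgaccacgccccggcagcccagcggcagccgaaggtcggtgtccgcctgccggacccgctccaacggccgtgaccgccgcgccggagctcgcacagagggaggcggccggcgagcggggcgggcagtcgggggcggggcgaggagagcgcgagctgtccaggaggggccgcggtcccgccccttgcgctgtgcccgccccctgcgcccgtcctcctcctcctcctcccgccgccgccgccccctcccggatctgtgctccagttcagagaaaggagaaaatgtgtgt
Gna11: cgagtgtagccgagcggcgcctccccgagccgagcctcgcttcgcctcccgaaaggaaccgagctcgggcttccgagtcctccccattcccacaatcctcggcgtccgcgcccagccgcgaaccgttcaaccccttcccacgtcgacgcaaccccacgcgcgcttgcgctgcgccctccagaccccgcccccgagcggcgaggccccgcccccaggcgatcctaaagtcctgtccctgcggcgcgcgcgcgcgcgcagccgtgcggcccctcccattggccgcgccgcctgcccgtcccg
The windows are chr1:144004100-144004399 on the minus strand for Rgs2, chr19:16132434-16132733 on the plus strand for Gnaq and chr10:81545113-81545412 on the minus strand for Gna11. The Rgs2 window held 2 matches to the CRE half-site, which 20.8% of 32851 promoters hold at least once. None of the 3 windows held GGAAA, found in 61.3% of promoters, or TATAAA, found in 13.6%. A match describes the letters only.

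Several genes carry more than 1 kept probe, and these did not always move together. In 14 genes there were 27 pairs of the gene's brightest probe with another, 10 of which correlated above 0.8 over the 8 arrays and 9 below 0. The sign of the CsA difference was the same in 18 of the 27.
Rgs3 was the clearest case. Its brightest probe (A_52_P522134), which gave the values above, was lowest in number 1 and highest in number 4, with means of 4.11, 4.79, 4.90 and 5.57. The 3 probes that lie 40.7 to 42.4 kb from the first probe were instead highest in numbers 1 and 3. Of these, A_51_P253320, whose sequence is shown above, had means of 5.11, 4.00, 4.91 and 4.23. These 3 correlated at 0.93 to 1.00 with each other and at -0.48 to -0.33 with the brightest probe, so the gene's order over the numbers depends on the probe.
Gnas gave a like picture, with its 2 bright probes (A_52_P112182 and A_52_P112188) correlating at 0.99. Another, dimmer Gnas probe (A_51_P335321) had levels of -2.15, -2.63, -5.36 and -5.86 with CsA, against -1.95, -2.02, -4.83 and -5.46 with AngII alone. That probe was above background in numbers 1 and 2 and below it in numbers 3 and 4, where its values are unresolved, while the brightest probe was highest in number 3. Its difference with CsA was -0.43 (unadjusted p = 0.00852, adjusted p over probes = 0.932 by limma). The Gnas probes A_52_P219393, A_52_P190394 and A_52_P94874, also below background on some arrays, gave -0.32, -0.55 and -0.08. The 2 bright probes gave 0.11 and 0.09, so the sign of the Gnas difference depends on the probe. The second Arrb1 probe (A_52_P175003) read 1.91 in AngII culture 2, against -1.35 to -0.37 on the other 7 arrays. Gnai1 depended on the probe as well, with its brightest probe highest in number 3, A_51_P367834 in number 4 and A_52_P653585 in number 1. The latter 2 correlated with the brightest at -0.18 and -0.53 over 8 arrays and gave CsA differences of -0.25 and -0.04, against -0.02. A_51_P367834 was above background on all 8 arrays and A_52_P653585 on 5.

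**Figure D4:**
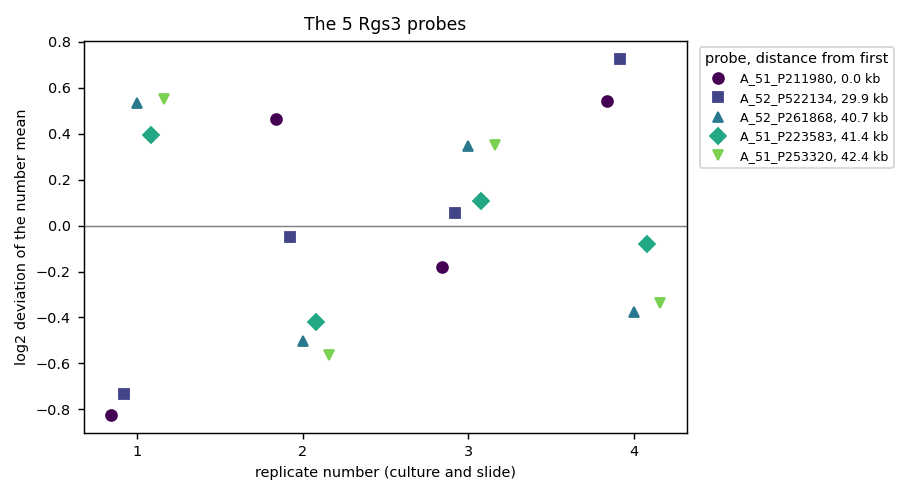
Deviation of each replicate number's mean (log2, vertical axis) for the 5 Rgs3 probes, by replicate number, with the distance of each probe from the first in kilobases. The probe at 29.9 kb is lowest in number 1, while the 3 probes at 40.7 to 42.4 kb are highest there.

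Of 60 receptor and effector genes of these pathways, 49 were measured and none passed the test in either direction, with 20 below 0, 29 above and a median difference of 0.02. At an unadjusted p under 0.05 there were 4 (8.16%), against 5.26% of all genes. Prkar2b, a regulatory subunit of protein kinase A, differed by -0.63 (unadjusted p = 0.00603, adjusted p = 0.894 by limma), but was above background on only 2 of 4 AngII+CsA and 3 of 4 AngII arrays, so part of its values are unresolved. S1pr2, a sphingosine phosphate receptor that couples to the 12/13 class, differed by 0.36, Plcb1, a phospholipase C that the q class activates, by -0.46, and Pde1a, a calmodulin-dependent phosphodiesterase, by -0.33, each with an adjusted p of 0.894 by limma.
Agtr1a, the type 1 AngII receptor, had levels of 3.76, 3.60, 4.51 and 3.84 with CsA, against 4.12, 3.45, 4.16 and 3.62 with AngII alone, a difference of 0.09. Between replicate numbers 31 of the 49 (63.3%) passed the F test, against 68.5% of all genes. Of 14 genes listed as accessory to G-protein signalling, 10 were measured and none passed the CsA test. Among them 2, Akap12 at 0.58 and Akap13 at 0.49, had an unadjusted p under 0.05 (20%, against 5.26% of all genes, adjusted p = 0.894 by limma).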

How the data were processed

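Total RNA of 8 cultures was labelled with Cy3 and hybridised to 1-colour arrays, per the labels. Per the file headers, Agilent Feature Extraction 9.5.3.1 read the scans. The deposited files give each spot's intensity on a linear scale as processed, mean and background signal. A further deposited table gives the authors' log2 values for these arrays; its method, scale and centring stay unknown, and it was tried in place of the scanner signals.

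Each processed signal was divided by its array's 75th percentile and put on a log2 scale, leaving out control and outlier spots. A probe was kept if above background on at least 4 of 8 arrays, and a gene took its brightest probe (19529 probes, 14881 genes). An accession match in RefSeq (GRCm38.p6) named 22951 of 41174 probes, 6659 others had a current symbol, and the file's name was used for 11564; 7 probes of Grk4, Grk5 and Grk6 were found through the accession. Tests were two-sided and used limma 3.58.1 (R 4.3.3) with the replicate number as a block, threshold 0.05. The fit was tried on simulated data, 5 draws with 200 changed genes each. It recovered 10% of changes of 0.5 log2 and 92.4% of changes of 1 log2, with 13 false calls per draw on average. Most changes of 0.5 log2 would therefore be missed. The planted changes reached 2 log2, and so many of them make the adjustment milder than in the data, where 4 of 14881 genes passed. In the data Cnn1 differed by -1.71 log2 with an adjusted p of 0.461 by limma. The recovered shares therefore do not carry over to the data, where changes of 1 log2 can also be missed. Same-numbered arrays, which share a slide, deviated together from their group means (r = 0.70 to 0.86, against -0.76 to 0.26 for other combinations), so the numbers pair the arrays. The number of arrays limits the precision.

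Values on every array are given for 18 genes of the alpha, RGS, arrestin and GRK classes where measured, for genes with an unadjusted p under 0.05 or the same sign in 4 of 4 pairs and a size of at least 0.2 log2, and for the 6 with the smallest p between replicate numbers. Other genes named were chosen after their values were seen. The genes and lists were chosen with earlier results of these data known. Alternatives were the block, background correction, normalization, filter, outlier spots, probe summary, the authors' table, the variance prior, leaving out each number and, chosen after seeing the data, a probe GC correction.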

Additional observations from a re-analysis of the deposited data

Results flagged for a closer look

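In 2 of 84 groups of 4 arrays, 1 array stood apart from the other 3 by Dixon's test; chance alone marks about 1 group in 20. Gnaz, an alpha subunit of the i class, read -0.49 in AngII culture 3, against -2.56 to -2.43 in the other AngII cultures, and pair 3 differed by -1.89 while the other 3 pairs differed by -0.10 to 0.18; the fitted difference with CsA was -0.45. Gnb1 read 7.07 in AngII+CsA culture 3, against 6.15 to 6.29 in the other AngII+CsA cultures, and the AngII culture of that number, at 6.96, was also the highest of its group.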

How the results depend on the processing

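No gene of the 42 passed the CsA test under any of the alternatives run, and the count that differed between replicate numbers stayed between 24 and 34, against 33. Its share was 57.1% to 82.9% over the settings tested by gene, against 44.1% to 76.6% of all genes, and 57.1% against 53.5% without number 2, where the count was 24. The fits without the replicate block and with a random replicate block also called 0. Their median difference of -0.04 could not change, because every pair was complete. The block changed no call among these genes, while over all genes there were 4 calls with it and 0 without it. A slide block is the same fit as the replicate block. The counts of genes ordered alike in all pairs depended most on the setting. Genes lower with CsA in every pair numbered 3, but 10 with normexp, 5 with the mean of all probes, 1 with the probe GC correction and 6 to 7 when a replicate number was left out; of all genes these were 9.72%, 26.7%, 9.88%, 7.68% and 14.2% to 19%. Genes higher in every pair numbered 2, but 8 with normexp and 3 to 8 when a number was left out, 8 being the count without number 3; of all genes these were 4.98%, 11.9% and 7.88% to 12.7%. The cause was not tested, except that 3 pairs are fewer to satisfy than 4. Of 295 values of named genes, 292 moved by less than the spread between replicates. Part of that count was fixed in advance, since a change of the block or the variance prior cannot move a difference when every pair is complete. The filter and outlier settings also left the named differences as they were. Gnas was 0.27 with normexp and -0.20 with the mean of its probes, against 0.11, and Arrb1 was -0.36 with the mean of its probes, against -0.05. The sign never turned in 8 of 20 named genes. Over all genes, calls with CsA numbered 0 to 6. With 4 pairs, differences below about the width of the intervals given, and levels near background, could not be resolved.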
